A study of Homo sapiens with 6 samples.

Results

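This comparison set the chromatin accessibility of K562 cells after 72 h of phorbol ester against that after 6 h, over every site of the deposited table. K562 is a human leukaemia line with erythroid features, derived from a patient with chronic myelogenous leukaemia and labelled as wild type. The phorbol ester, PMA, was given at 25 nM, and each of the time points 0, 6 and 72 h had 2 libraries made by the Omni-ATAC protocol. The medium was replaced during the 72 h course, at times that apply to the 72 h libraries only, so time and fresh medium cannot be told apart. The table lists 181135 sites, and 177759 of them had enough counts to be tested in the 4 libraries at 6 and 72 h together with the 2 untreated ones. The labels do not say whether the 2 libraries of a time point came from separate cultures, so p-values measure the spread between these libraries, which may be technical.

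ATAC-seq counts the places where a transposase can insert into DNA, and open promoters and enhancers therefore collect reads. PMA mimics diacylglycerol and activates protein kinase C and, through it, the ERK kinases. Their first nuclear targets are immediate early genes, many of which encode AP-1 factors of the FOS and JUN families, and in K562 a prolonged treatment leads toward a megakaryocyte-like state. Early activation is normally damped by phosphatases and inhibitors of the same pathway, such as the DUSP and SPRY proteins.

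Sites were grouped by when they changed. A late-opening site was not called at 6 h against 0 h, had an absolute log2 fold change under 0.5 there, and was called higher at 72 h than at both earlier times. A late-closing site met the same limits in the other direction. A fall-back site was called higher at 6 h than at 0 h and then lower at 72 h than at 6 h, and a recovering site did the reverse. A call means an adjusted p under 0.05 in edgeR's quasi-likelihood test with Benjamini-Hochberg adjustment. Calls covered 40.1% of tested sites for 6 h against 0 h and 67.4% for 72 h against 0 h. The groups were cut from these contrasts, so their fold changes are given as descriptions. The contrasts also share libraries: the 6 h libraries enter both steps of a fall-back site, so a chance high value at 6 h raises the first step and lowers the second.

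To show what such regions look like, promoter stretches of each group are printed here, taken from the RefSeq promoter table of GRCh38.p14. Each runs 5′ to 3′ on the gene's strand and covers the 250 bases before the annotated start. They are the 2 stretches per group with the largest change among those that lie in a member site and hold the motif in question, so they illustrate the motif and do not show how common it is. Capitals mark matches to TGANTCA (the AP-1 site) in the late-opening and fall-back promoters. In the late-closing promoters they mark CCGGAAG (bound by ETS factors), and in the recovering promoters AGATAA (bound by GATA factors), each searched on both strands. The first 2 are late-opening (GIMAP6 at chr7:150632386-150632635, minus strand, and DDO at chr6:110415576-110415825, minus strand).
GIMAP6: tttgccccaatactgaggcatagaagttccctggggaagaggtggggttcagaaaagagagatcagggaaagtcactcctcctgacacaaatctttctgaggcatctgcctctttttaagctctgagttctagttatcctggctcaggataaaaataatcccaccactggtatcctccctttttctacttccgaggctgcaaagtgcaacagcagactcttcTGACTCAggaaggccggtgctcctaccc
DDO: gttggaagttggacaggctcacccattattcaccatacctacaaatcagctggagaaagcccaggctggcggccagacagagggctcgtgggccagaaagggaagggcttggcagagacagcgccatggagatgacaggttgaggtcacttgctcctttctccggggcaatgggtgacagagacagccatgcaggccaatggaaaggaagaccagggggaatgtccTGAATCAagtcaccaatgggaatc
The next 2 are late-closing (CABP1 at chr12:120640376-120640625, plus strand, and SNX9 at chr6:157822996-157823245, plus strand).
CABP1: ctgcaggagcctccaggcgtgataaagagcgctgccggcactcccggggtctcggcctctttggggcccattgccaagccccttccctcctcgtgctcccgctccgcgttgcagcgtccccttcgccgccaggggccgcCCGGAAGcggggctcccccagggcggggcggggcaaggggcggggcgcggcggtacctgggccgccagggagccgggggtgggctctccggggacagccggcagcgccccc
SNX9: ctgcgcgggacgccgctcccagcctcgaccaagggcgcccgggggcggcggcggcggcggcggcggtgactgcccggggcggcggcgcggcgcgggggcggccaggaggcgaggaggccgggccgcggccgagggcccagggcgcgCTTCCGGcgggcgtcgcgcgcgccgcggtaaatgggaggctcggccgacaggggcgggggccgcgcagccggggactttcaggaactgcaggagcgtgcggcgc
These 2 are fall-back promoters (ATP1B4 at chrX:120361839-120362088, plus strand, and CRYBA2 at chr2:218993423-218993672, minus strand).
ATP1B4: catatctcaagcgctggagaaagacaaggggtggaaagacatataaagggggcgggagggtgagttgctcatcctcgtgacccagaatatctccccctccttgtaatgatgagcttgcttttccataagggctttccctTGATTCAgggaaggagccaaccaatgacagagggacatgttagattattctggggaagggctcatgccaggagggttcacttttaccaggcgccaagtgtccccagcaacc
CRYBA2: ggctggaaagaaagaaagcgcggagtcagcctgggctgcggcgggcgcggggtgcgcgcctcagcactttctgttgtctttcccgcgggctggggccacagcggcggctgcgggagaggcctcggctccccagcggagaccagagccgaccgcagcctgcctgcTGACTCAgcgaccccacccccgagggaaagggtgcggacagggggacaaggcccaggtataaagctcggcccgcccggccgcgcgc
The last 2 are recovering promoters (SIGLECL1 at chr19:51246082-51246331, plus strand, and VTN at chr17:28370308-28370557, minus strand).
SIGLECL1: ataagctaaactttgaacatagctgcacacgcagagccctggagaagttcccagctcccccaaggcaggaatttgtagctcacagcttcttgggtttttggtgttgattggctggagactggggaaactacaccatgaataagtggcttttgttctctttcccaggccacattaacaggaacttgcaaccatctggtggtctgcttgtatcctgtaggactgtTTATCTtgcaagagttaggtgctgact
VTN: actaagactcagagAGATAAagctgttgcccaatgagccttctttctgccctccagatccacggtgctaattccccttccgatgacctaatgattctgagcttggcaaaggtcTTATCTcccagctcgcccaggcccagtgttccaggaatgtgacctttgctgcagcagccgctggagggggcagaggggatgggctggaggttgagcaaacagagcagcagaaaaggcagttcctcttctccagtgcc

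In CPM (counts scaled to a library size of 1000000 after TMM), the site over the GIMAP6 promoter stood at 1.82 and 1.72 untreated, 2.22 and 1.2 at 6 h, and 4.17 and 5.90 at 72 h. Both 72 h values lay above all earlier ones, which the choice of stretches required for the 6 h values. The log2 fold change was 1.67 ± 0.33 (SE, n = 2 libraries a group) at 72 h against 6 h. GIMAP6 encodes a small GTPase of a family known from immune cells. The SNX9 promoter, of a sorting nexin in endocytosis, went from 83.4 and 79.5 CPM at 6 h to 25.6 and 25.8 at 72 h. ATP1B4 read 1.17 and 0.574 CPM at 0 h, 5.71 and 6.46 after 6 h, and 1.55 and 1.49 after 72 h, which put both 72 h values far below the 6 h values and above the untreated ones. The VTN promoter, of the adhesive plasma protein vitronectin, dipped from 8.45 and 6.98 CPM to 4.35 and 4.87 at 6 h and stood at 9.32 and 9.06 at 72 h.

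The libraries differed in depth and in how their reads were spread. Counts in the sites summed to 17669446 and 24470037 in the untreated libraries, 12258890 and 33634403 after 6 h, and 30934990 and 35548737 after 72 h, so the first 6 h library was the shallowest. The authors' peak lists held 65336 and 93015 peaks at 6 h and 138914 and 142305 at 72 h. Sites within 1000 bases of a gene start are called promoter sites (for 4194 of 20037 protein-coding genes the reference gave no start, and both annotated ends were used). Their share of counts was 43.6% and 45.9% in the untreated libraries, 37.6% and 37.7% after 6 h and 25.8% in each 72 h library. This fall runs along with every lower call at a promoter given below, and its part in those calls was not tested. Summed CPM over promoter sites of an erythroid gene list (35 genes, 33 with such a site) was 1249 and 1327 untreated, 842 and 839 after 6 h and 433 in both 72 h libraries. A lymphoid list (16 genes, 10 with such a site) gave 80.6 to 107 in all 6 libraries, and the monocyte and macrophage list (20 genes, 11 with such a site) fell from 194 and 205 at 6 h to 114 and 121 at 72 h. A megakaryocyte and platelet list (28 genes, 17 with such a site) fell less, from 180 and 211 at 6 h to 159 and 178 at 72 h. An epithelial and fibroblast list (15 genes, 11 with such a site) went from 137 and 134 to 101 and 109. A housekeeping list (20 genes, 19 with such a site) fell too, with 1206 and 1498 untreated, 1033 and 1142 after 6 h and 472 and 525 after 72 h, so a falling sum does not tell cell types apart here. In these bulk libraries, a change in the share of cells and a change per cell cannot be told apart.

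Between 6 and 72 h, strong sites near gene starts mostly lost relative accessibility with TMM scaling, while gains lay among weaker sites far from them. In that scaling, 76311 of the 177759 sites differed (42.9%), with 39212 higher at 72 h (22.1%) and 37099 lower (20.9%). Of the sites near gene starts, 5.22% were higher and 64.9% lower (n = 18242), whereas 24.0% of the other sites on chromosomes were higher and 15.8% lower (n = 158681). Their median log2 fold changes were −0.83 and 0.14. By strength, 49.7% of the sites in the top quartile of mean CPM were lower, against 8.62% in the bottom quartile. With loess offsets, which remove a trend along strength by construction, this contrast was absent, with shares of 15.0% and 15.2%. With shared sites (TMM factors from sites that have a peak in all 6 libraries) they were 13.6% and 2.41%. The contrast thus kept its direction there, with lower shares. The share of lower promoter sites was 21.9% with loess offsets, beside 16.9% of the other sites, and 22.4% with shared sites, beside 3.27%.

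How many sites opened or closed depended on the scaling. Higher sites made up 51.4% of all calls with TMM, 49.3% with size factors of the RLE kind, 48.7% with loess offsets fitted along site strength, 73.6% with total counts, and 89.2% with shared sites. The median over all sites moved with it, from −0.08 with loess offsets and 0.03 with TMM to 0.39 with total counts and 0.70 with shared sites. With loess offsets the promoter median was −0.19, beside −0.04 for the other sites. With shared sites these medians were −0.16 and 0.81, and with TMM −0.83 and 0.14. Promoters thus lay about as far below other sites with shared sites as with TMM, and the gap narrowed with loess offsets. At an adjusted p under 0.01 with a log2 fold change beyond 1 in size, 24939 were higher (14%) and 15209 lower (8.56%). Under all 5 scalings together, 25934 sites were called higher (14.6%) and 5948 lower (3.35%). In CPM after TMM, both 72 h libraries exceeded both 6 h libraries at 67070 sites (37.7%) and lay below them at 62871 (35.4%). These counts share the TMM scaling and are no check on it. Leaving out a 72 h library also lowered the number of differing sites, to 48253 without the first and 44528 without the second. Without the second, 23725 sites were higher, and lower sites numbered 21833 without the first and 20803 without the second.

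**Figure D1:**
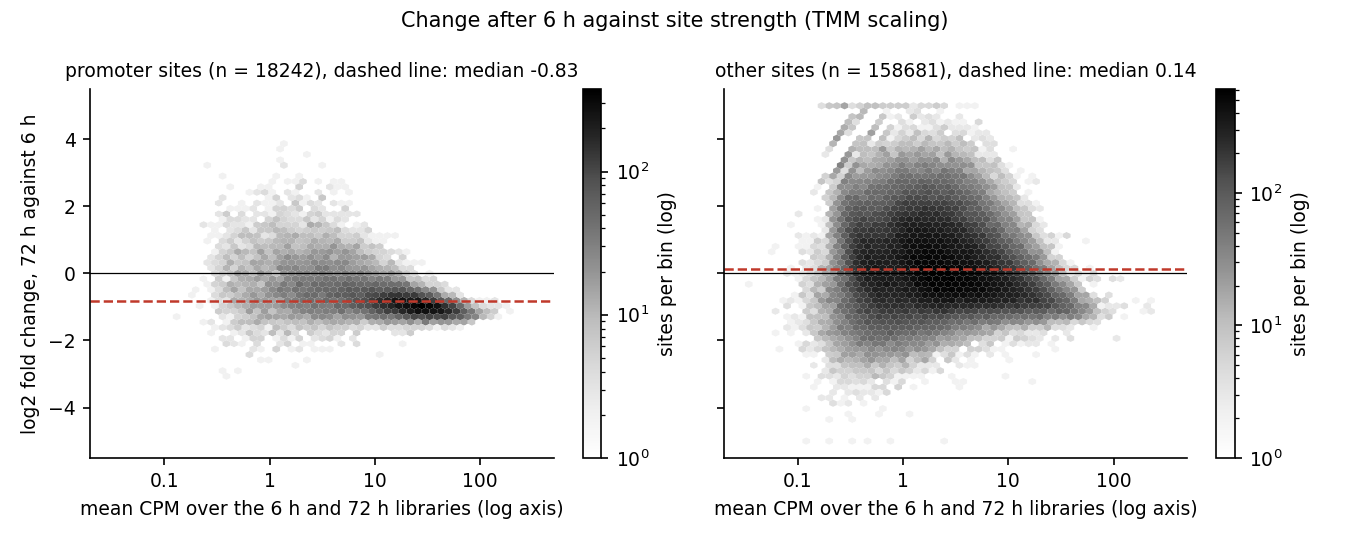
Log2 fold change at 72 h against 6 h (vertical axis, drawn at 5 or −5 where beyond it) against mean CPM over the 4 libraries at 6 and 72 h (horizontal log axis), as the number of sites per bin, for 18242 promoter sites (left) and 158681 other sites (right). Strong promoter sites form a band below 0 around the median of −0.83, while other sites spread to both sides of a median of 0.14.

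The late-opening group held 11268 sites (6.34% of those tested), the late-closing group 12950 (7.29%), the fall-back group 8157 (4.59%) and the recovering group 3410 (1.92%). A further 9799 sites rose at both steps and 10862 fell at both, and 62328 sites (35.1%) were called at neither. Of late-opening and recovering members, 69.2% and 69.9% were called the same way at 72 h against 6 h under all 5 scalings. For late-closing and fall-back sites these shares were 15.8% and 20.9%, which leaves 2048 and 1704 sites. Membership, which also needs the step from 0 to 6 h, moved more: with loess offsets 5543 of the late-opening, 4475 of the late-closing, 4727 of the fall-back and 2456 of the recovering sites stayed in their group. With shared sites 7488, 2007, 1849 and 2216 did. With 1 library left out, the fall-back group shrank to 3927 without the second 6 h library, 3430 without the first 72 h library and 3838 without the second. Without the second 72 h library the late-opening group held 7267 sites and the recovering group 1926. Without the first 72 h library the recovering group held 2137 sites and the late-closing group 7506, and without the second the latter held 7014. The members changed more than these sizes: without the second 6 h library, 4434 late-opening, 8149 late-closing, 3711 fall-back and 1524 recovering sites remained members.

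The median late-opening site was barely open early, at 0.725 CPM at 0 h and 0.752 at 6 h, and reached 2.79 at 72 h. Late-closing sites were strong before they closed: their medians were 12.4, 11.2 and 5.98 CPM. Fall-back sites rose from 2.83 to 10.2 and came down to 5.25 CPM, and recovering sites dipped from 3.29 to 1.17 and stood at 3.24. Over all tested sites the medians were 1.44, 1.82 and 2.29 CPM. The median log2 ratio of 72 h over 6 h within replicate 1 and within replicate 2, on CPM plus 0.5, was 1.21 and 1.23 for late-opening, −0.91 and −0.90 for late-closing, −0.87 and −0.90 for fall-back and 1.01 and 1.05 for recovering sites.

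**Figure D2:**
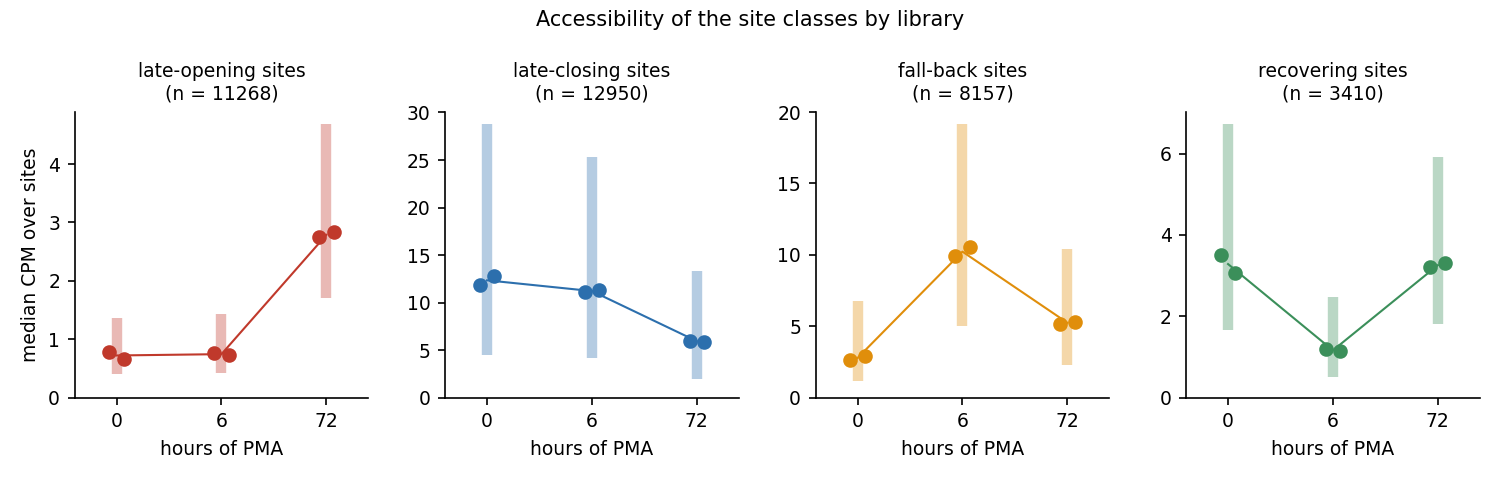
Median CPM over the sites of each group in each library (points, 2 per time point, linear axes from 0) against hours of PMA, with the mean of both joined by a line and bars for the range from the lower to the upper quartile of sites. The 2 libraries of a time point nearly coincide in each group, and the late-opening group stays near 0.75 CPM until 6 h and reaches 2.79 at 72 h.

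Early gains that came down did so to different levels. Of the fall-back sites, 3665 (44.9%) were still called higher than at 0 h after 72 h, and their median log2 fold change against 0 h was 2.36 at 6 h and 1.40 at 72 h. Another 4060 (49.8%) were no longer called against 0 h, with medians of 1.17 and 0.11. The remaining 432 (5.30%) ended below the untreated level, and 20.6% of these lay near gene starts against 7.47% of all fall-back sites. Among recovering sites, 2301 (67.5%) were not called against 0 h at 72 h, 652 (19.1%) were still lower and 457 (13.4%) were higher. A site that is not called against 0 h has not been shown to be back at its level.

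The groups sat in different places. Late-opening sites were rare at promoters, with 2.72% within 1000 bases of a gene start and 45.7% more than 50000 bases away, beside 10.3% and 34.2% of all tested sites. Late-closing sites showed the opposite, with 39.3% near a start and 15.4% far away. Fall-back sites lay between, at 7.47% and 26.6%, and recovering sites at 3.45% and 39.5%. On chromosome 19, the chromosome with the highest share of sites near gene starts (22.8%), 3.52% of sites were late-opening and 11.4% late-closing. Across the autosomes and X, the late-opening share was lowest there and highest on chromosome 18, at 8.21%, where 7.25% of sites lay near starts.

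Peak calls, made by the authors in each library, gave a second view of the groups, though from the same reads and with more peaks at 72 h in general. Of late-opening sites, 64.7% overlapped a peak in both 72 h libraries and in none of the other 4, against 18.5% of all tested sites. This held for 23.0% of recovering, 0.178% of late-closing and 0.356% of fall-back sites. A peak in all 6 libraries was found at 68.0% of late-closing and 33.4% of fall-back sites, against 3.74% of late-opening sites and 20.1% of all. At these late-closing sites the peak call therefore stayed while CPM after TMM scaling fell, which need not mean fewer raw reads.

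Members of a group often lay side by side. An adjacent site of the same group within 50000 bases was present for 22.8% of late-opening, 25.4% of late-closing, 27.4% of fall-back and 7.9% of recovering sites. For sites outside the group, a member as such a neighbour was found in 10.7%, 12.4%, 7.6% and 3.5%. Another site that had opened by 6 h lay within 50000 bases of 83.8% of late-opening sites, close to the 82.9% of all tested sites, and of 93.0% of fall-back sites.

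**Figure D3:**
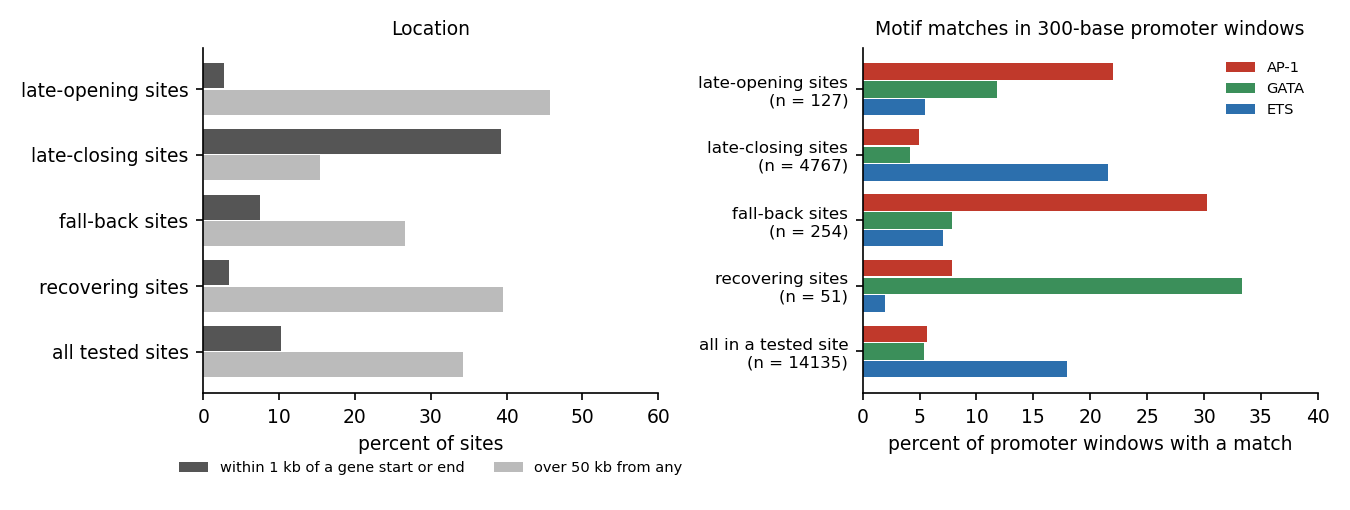
Left, the percent of sites of each group within 1 kb of a gene start or end and over 50 kb from any, beside all tested sites. Right, the percent of 300-base promoter windows overlapping a site of each group that match the AP-1, GATA or ETS letters (n windows in brackets). AP-1 is highest for fall-back windows at 30.3%, GATA for recovering windows at 33.3% and ETS for late-closing windows at 21.6%.

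Promoter windows of the groups differed in the letters they carry. Windows ran from 250 bases before to 50 after an annotated start, and 14135 overlapped a tested site, wholly or in part. The AP-1 letters TGANTCA matched 30.3% of 254 fall-back and 22% of 127 late-opening windows, against 4.95% of 4767 late-closing windows and 5.62% of all 14135. The GATA letters AGATAA matched 33.3% of 51 recovering windows (17 windows), against 5.38% of all. ETS letters CCGGAAG were found in 21.6% of late-closing windows, 5.51% of late-opening windows and 18.0% of all, and the GC box GGGCGGG in 55.2%, 22% and 54.1%. RUNX letters TGTGGT matched 21.3% of late-opening windows and 9.61% of all.

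Base composition differed as well, with a median GC content of 54.0% in late-opening, 66.7% in late-closing, 62.7% in fall-back and 52.3% in recovering windows, and 65.7% in all. Among windows of at most 60% GC, AP-1 letters matched 43.3% of fall-back, 26.7% of late-opening and 10.8% of all windows. GATA letters matched 36.8% of recovering windows (14 of 38) and 12.7% of all in that range, and ETS letters 23.2% of late-closing and 16.5% of all. These are matches of short letter strings, not bound sites, and they cover only members at annotated starts, few in each group but the late-closing one. The sequence of distal sites was not analysed here.

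Late-opening sites are named here if their mean CPM was at or above the median of all tested sites. They also had no overlap of libraries and the same call under each scaling. Those with the largest changes lay in or near genes of varied roles, while other members reached a log2 fold change of 7.39. Inside SH3KBP1, which encodes an adaptor in receptor endocytosis, the site at chrX:19694667-19695244 held 0.130 and 0.0478 CPM at 0 h, 0 and 0.158 after 6 h, and 3.99 and 4.93 after 72 h. Only 5 reads stood behind its 6 h value and 363 behind its 72 h value. Its log2 fold change was 5.25 ± 0.54 (SE), with an edgeR adjusted p of 4.5e-07. Near CACNA2D3, a calcium channel subunit gene, the site at chr3:54046598-54047698 went from 0.512 and 0.221 CPM at 6 h to 6.91 and 9.49 at 72 h, a 22.4-fold difference in mean CPM. Sites inside ARNT2, which encodes a bHLH-PAS transcription factor (chr15:80536517-80537222), and near SEC11C, a signal peptidase subunit (chr18:59114095-59114778), rose 21.4-fold and 24.5-fold, each from 7 reads at 6 h. For ARNT2 the log2 fold change of 4.91 became 6.27 without the first 6 h library and 3.65 without the second.

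Late opening was densest on chromosome 10 around DMBT1, which encodes a scavenger receptor, and HTRA1, a secreted serine protease. In the 100000-base window from 122600001, 18 of 19 tested sites were higher at 72 h than at 6 h and 10 were late-opening. Their summed CPM was 2.66 and 2.25 untreated, 2.05 and 2.72 at 6 h, and 22.3 and 22.4 at 72 h. The window before it held 8 such sites among 20, and their sum went from 2.90 and 2.91 to 29.7 and 34.1. The site inside DMBT1 at chr10:122636214-122636992 had 0 and 0.348 CPM at 6 h and 6.60 and 6.70 at 72 h. At PTPN14, a tyrosine phosphatase gene on chromosome 1, 19 of 20 sites rose and 10 were late-opening, with sums of 6.82 and 5.28 CPM at 6 h and 53.8 and 51.7 at 72 h. At RPS6KA2, which encodes an ERK-activated kinase of the RSK family, 15 of 21 sites rose and 9 were late-opening.

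By nearest gene, 4019 genes had a late-opening site within 50000 bases of a start and 94 had at least 5. The gene with the most, named here after its values were seen, was BACE2, an aspartyl protease gene, with 13 late-opening sites of 37. Of these 37 sites 32 rose and none fell, and the 13 went from 9.55 and 7.28 summed CPM at 6 h to 90.6 and 79.9 at 72 h. ARHGAP22, which encodes a GTPase-activating protein, had 11 of 48, with sums of 31.5 and 33.7 at 6 h and 110 and 113 at 72 h. These sums cover only sites classed as late-opening, so their gap to the 4 earlier libraries follows from that choice.

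**Figure D4:**
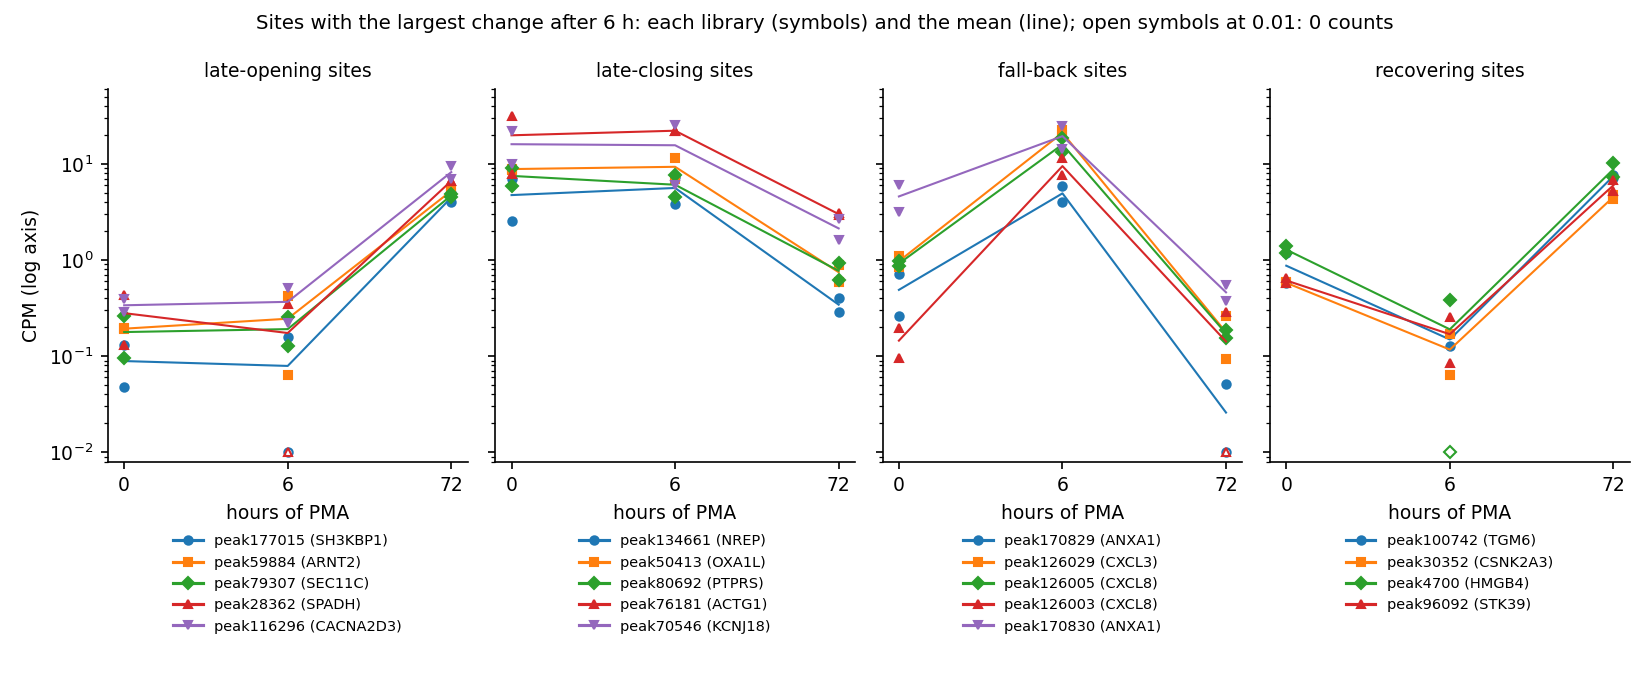
CPM (log axis) at 0, 6 and 72 h of PMA for the sites of each group with the largest change after 6 h (5 per group, but 4 recovering ones), with symbols for each library, lines through the means, and the gene with the nearest start or end in brackets. Open symbols at 0.01 stand for 0 counts. Sites were chosen for no overlap between the 6 h and 72 h libraries, and for strength and the same call under each scaling.

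Among late-closing sites with a mean CPM at or above the median of all tested sites, no overlap of libraries and the same call under each scaling, the 5 with the largest falls lay outside promoters. Weaker sites could fall more. The site at chr5:112164481-112164903, inside EPB41L4A (a gene of the band 4.1 family), had 2.53 and 6.93 CPM at 0 h, 3.84 and 7.37 after 6 h, and 0.285 and 0.401 after 72 h. Its log2 fold change at 72 h against 6 h was −4.06 ± 0.45 (adjusted p from edgeR 8.6e-07). A site at chr14:22714927-22715677, 51011 bases from OXA1L, fell 12.5-fold in mean CPM, from 11.6 and 7.02 to 0.595 and 0.897. Inside PTPRS, a receptor tyrosine phosphatase gene (chr19:5308736-5309640), the fall was 7.86-fold, and at 3433 bases from the start of ACTG1, the gamma-actin gene (chr17:81508245-81509366), it was 7.36-fold. The ACTG1 site stood at 7.80 and 31.8 CPM untreated and 22.2 and 22 at 6 h, so its early step averages untreated libraries that lay far apart. Another site, on chromosome 17 at 22521468, far from genes, varied widely within a time point, with 25.1 and 6.04 CPM at 6 h against 2.64 and 1.63 at 72 h. Its log2 fold change of −2.80 was −1.51 without the first 6 h library.

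The densest late closing was at RHOU, which encodes a small GTPase. In its 100000-base window on chromosome 1, 17 of 21 sites were lower at 72 h and 13 were late-closing, 10 of them lower under all 5 scalings. The summed CPM of the 13 was 309 and 548 untreated, 298 and 348 at 6 h, and 133 and 131 at 72 h. The untreated libraries thus differed widely from each other. Lower sums at 72 h follow from the choice of late-closing sites. The window with BTN1A1, HMGN4 and ABT1 on chromosome 6 had 12 late-closing sites of 22, none of which was called lower under all 5 scalings. Around ESPN and PLEKHG5 on chromosome 1, 12 of 32 sites closed late, and sums went from 146 and 134 CPM to 75.2 and 68.8. Only 1 of these 12 was called lower under all 5 scalings.

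Within those limits of strength, overlap and scaling, sites that opened by 6 h and lost the most afterward lay beside chemokine genes and ANXA1. CXCL3 and CXCL8 encode chemokines that attract neutrophils, and CXCL8 is a known early target of PMA. At chr4:74035517-74036321, 2368 bases from the start of CXCL3, CPM was 0.845 and 1.1 untreated, 19.8 and 22.3 at 6 h, and 0.259 and 0.0944 at 72 h. The mean at 72 h was 119-fold lower than at 6 h and also below the untreated level, with log2 fold changes of −6.89 ± 0.34 against 6 h and −2.48 ± 0.46 against 0 h. At CXCL8, the promoter site at chr4:73741197-73741557 held 0.390 and 0.287 CPM, then 4.78 and 7.31, then 0.414 and 0.189. The sites 1670, 3036 and 3464 bases from its start did the same, the last (chr4:73744033-73744850) with 13.2 and 18.7 CPM at 6 h and 0.155 and 0.189 at 72 h.

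ANXA1 encodes annexin A1, a phospholipid-binding protein with anti-inflammatory roles. In its 100000-base window on chromosome 9, 10 of 18 sites fell back, 6 of them called lower under all 5 scalings. The sum over the 10 was 15.4 and 18.9 CPM at 0 h, 54.0 and 67.4 after 6 h and 13.5 and 11.6 after 72 h. The site at chr9:73171514-73172931 went from 14.2 and 24.6 CPM at 6 h to 0.544 and 0.378, below its untreated 3.18 and 5.98. Its neighbour at chr9:73171072-73171404 had 232 reads at 6 h and 2 at 72 h, a ratio of 217 with an exact 95% interval of 59.4 to 1801 that covers counting error only.

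At KLF6, a zinc finger transcription factor gene, 13 of the 21 sites in the densest window were lower at 72 h and 10 fell back. Of the 10, 6 were called lower under all 5 scalings. The sum over the 10 was 37.4 and 40.9 CPM at 0 h, 250 and 233 after 6 h, and 55.1 and 56.7 after 72 h. Inside the gene, the site at chr10:3775149-3776680 went from 6.50 and 7.27 to 99.7 and 95.6 and back to 8.31 and 9.32. The main KLF6 promoter site behaved otherwise: at chr10:3784851-3786079 it held 69.4 and 64.8, 73.8 and 69.1, and 19.7 and 26.2 CPM, a late-closing pattern with no call at 6 h. A weaker site 997 bases from the same start (chr10:3786206-3786472) fell back, with 2.34 and 2.01, 5.88 and 6.04, and 1.04 and 1.01 CPM. Elsewhere, the window with CDCP1, CLEC3B and EXOSC7 on chromosome 3 held 12 fall-back sites of 26, and their sum went from 259 in each 6 h library to 120 and 121. Only 3 of these 12 were called lower under all 5 scalings. The window with ZNF787, ZNF444, GALP and ZSCAN5B on chromosome 19 held 10 of 18, going from 160 and 134 to 33.4 and 40.3, and 7 of the 10 were called lower under all 5 scalings.

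Counted by nearest gene, 3801 genes had a fall-back site and 104 had at least 5. GADD45A, a stress-response gene, and KLF6 had the most, with 15 each of 28 and 24 sites, and were followed by ALDH1A2, NEDD4L and YWHAZ with 11 each; all but KLF6 and YWHAZ were picked out after their values were seen. For GADD45A the sum over these sites was 95.2 and 86.2 CPM at 0 h, 272 and 284 after 6 h and 106 and 113 after 72 h. For ALDH1A2, which makes retinoic acid, it was 7.21 and 6.93, then 39.1 and 35.4, then 10.0 and 10.1. Sums at 72 h in both genes lay near those of untreated cells. Being below those at 6 h follows from the choice of fall-back sites.

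Recovering sites were the smallest group, and only 1 gene had 5 or more. Within the limits of strength, overlap and scaling used above, the largest changes came where a weak site dipped and then passed its starting level. Outside those limits, log2 fold changes at 72 h against 6 h reached 8.87. At chr20:2438975-2439845, 6222 bases from an annotated end of TGM6 (a transglutaminase gene), CPM was 1.17 and 0.574 untreated, 0.171 and 0.127 at 6 h, and 7.20 and 7.72 at 72 h. Inside STK39, a stress-kinase gene (chr2:168212657-168213313), the rise was 35.4-fold, inside CSMD2 (chr1:33898685-33899413) 46.3-fold and inside GALNT18 (chr11:11320777-11321505) 38.8-fold. Each of these rested on 4 to 12 reads at 6 h.

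At ATF7IP2 on chromosome 16, 4 of 19 sites in the densest window recovered, from 21.6 and 15.8 CPM to 3.92 and 3.89 and back to 20.3 and 21.8, which is close to the start. At PHACTR1 on chromosome 6, which encodes a regulator of actin and phosphatase 1, 4 of 16 did, and their sum was 17.2 and 14.5, 6.91 and 7.44, and 22.7 and 25.2. The window with most recovering sites, 6 of 15, holds NBPF19 and PPIAL4C in a duplicated stretch of chromosome 1, where reads of near-identical copies may be shared, and is uncertain. A window on chromosome 15 with no protein-coding gene had 4 of 23. Near ETS1, which encodes a transcription factor of the ETS family, the site at chr11:128609796-128610233 held 0.650 and 0.574 CPM, then 0 and 0.0949, then 3.81 and 4.34.

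The 12 gene lists used next were drawn up with earlier results of these data known, and a site belonged to the gene whose start was nearest within 50000 bases. Over all sites on chromosomes with genes, 22.1% were higher and 20.9% lower with TMM, and over promoter sites 5.22% and 64.9%. For promoter sites in the top quartile of mean CPM, these shares were 1.69% and 85.3%, so a high share of lower promoters is not particular to a list. Under all 5 scalings, 14.6% of tested sites were called higher and 3.35% lower. Immediate early and AP-1 genes had 285 sites, of which 44 were higher and 107 lower at 72 h than at 6 h, but under all 5 scalings 30 were higher and 28 lower. Fall-back sites made up 16.8% of them (48 sites), beside 4.61% of all tested sites on chromosomes with genes. KLF6 alone was the nearest gene of 15 of these 48. The median log2 fold change of the list was −0.28 and ran from −0.32 to 0.39 over the 5 scalings, below the median of all sites under each. Near FOS, the distal site at chr14:75282469-75283039, 3641 bases from the start, held 0.715 and 0.908 CPM at 0 h, 4.95 and 11.8 after 6 h, and 0.725 and 0.684 after 72 h.

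Promoters of this list were strong before treatment and moved mainly after 6 h. The FOS promoter (chr14:75278136-75279244) held 24.0 and 21.3 CPM at 0 h, 32.0 and 31.2 after 6 h, and 11.4 and 12.6 after 72 h, a fall-back pattern that ended below the start. EGR1, a zinc finger factor, went from 245 and 228 CPM at 6 h to 75.8 and 90.2 (chr5:138463808-138465798; log2 fold change −1.51 ± 0.12, adjusted p from edgeR 5.5e-08), although its value was −0.05 with loess offsets. The log2 fold changes of FOSL1, FOSL2, JUN and JUND with TMM were −1.28, −1.13, −1.09 and −1.51. With loess offsets, JUN turned to 0.07, FOSB to 0.16, EGR3 to 0.17 and JUNB to 0.48, and JUNB also turned to 0.12 with shared sites, so no direction is given for these 4. The weak ATF3 site (chr1:212565013-212565257) rose from 1.17 and 1.15 CPM to 4.01 and 3.73 and fell to 1.40 and 1.94. Among the 37 promoter sites, 29 were lower and 3 higher, and the largest gain was at MAFF, a small MAF factor, with 2.22 and 2.09 CPM at 6 h and 3.83 and 4.37 at 72 h.

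Genes that feed back on ERK and protein kinase C had 53 of 300 sites higher and 74 lower with TMM, but 36 higher and 8 lower under all 5 scalings. Fall-back sites numbered 37 (12.3%, beside 4.61% of all). DUSP5, an ERK phosphatase, showed a partial return: the site 382 bases from an annotated end (chr10:110511915-110513343) held 5.59 and 6.31 CPM at 0 h, 44.9 and 48.5 after 6 h, and 19.2 and 25.9 after 72 h. Both 72 h values lay between the untreated and the 6 h values. Another DUSP5 site, 15393 bases from an end (chr10:110481826-110482514), opened late, from 0.512 and 0.728 CPM at 6 h to 4.81 and 3.82. PRKCE, which encodes a protein kinase C, also had a late-opening site in its body (chr2:45674009-45674792), with 0.938 and 1.68 CPM at 6 h and 9.24 and 10.1 at 72 h. Promoters of the phosphatases DUSP16 and DUSP8 had log2 fold changes of −1.45 and −1.42, and the SPRY4 promoter changed sign between TMM (−0.92) and loess offsets (0.15).

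Cytokine and chemokine genes had the largest fall-back share of the 12 lists, 49 of 255 sites (19.2%), with 53 higher and 88 lower in all, and 42 and 32 under all 5 scalings. Not every member fell back. The site at an end of CCL2, a monocyte-attracting chemokine (chr17:34254976-34255794), rose at both steps, from 1.56 and 2.25 CPM to 4.95 and 3.89 and then 12.9 and 10.6. INHBA, which encodes an activin subunit, had a late-opening promoter (chr7:41704966-41705636), with 4.43 and 3.2 CPM at 6 h and 8.75 and 9.98 at 72 h. A weak site 428 bases from an annotated end of IL18 (chr11:112163425-112163666) closed late, from 0.767 and 0.854 to 0.0259 and 0.118, a log2 fold change of −3.40 ± 0.68.

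Megakaryocyte and platelet genes had similar numbers of gains and losses with TMM: 53 of 251 sites were higher and 50 lower, with 11 fall-back (4.38%) and 13 late-opening sites (5.18%), and under all 5 scalings 31 were higher and 7 lower. The promoter of ITGA2B, the platelet integrin alphaIIb, recovered in part, from 27.3 and 24.6 CPM at 0 h to 7.67 and 10.7 at 6 h and 12.9 and 16 at 72 h. Its log2 fold change at 72 h against 6 h was 0.62 ± 0.20 (adjusted p from edgeR 0.014), and both 72 h values lay between the earlier ones. The ITGB3 site changed by −0.66 with TMM and 0.01 with shared sites. Inside THBS1, which encodes the granule protein thrombospondin, a site at chr15:39592649-39593073 rose from 0.0853 and 0.411 CPM at 6 h to 2.90 and 3.63, after a first step that was not called (log2 fold change 1.85 ± 0.88 at 6 h against 0 h, adjusted p from edgeR 0.1). Only 14 reads stood behind its 6 h value. The start of CD9, a tetraspanin gene, fell back from 3.58 and 5.85 CPM to 2.12 and 2.19, while another start of CD9 (chr12:6226289-6226808) rose from 0.682 and 0.918 to 2.10 and 2.31.

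Transcription factor genes of the lineage had 109 of 377 sites higher and 100 lower, with none of 36 promoter sites higher and 29 lower. Under all 5 scalings 86 sites were higher and 17 lower. IKZF1, the IKAROS gene, had a late-closing promoter (chr7:50303969-50305038), with 31.6 and 24.1 CPM at 6 h and 8.65 and 7.10 at 72 h. The promoters of GATA2 and TAL1 had log2 fold changes of −1.35 and −0.99 with TMM, and of −0.36 and −0.08 at their weakest over the scalings. That of RUNX1 was −1.22 with TMM and 0.07 with loess offsets. LYL1, which had already fallen from 77.9 and 87.1 to 34.5 and 29.3 CPM by 6 h, stood at 27.7 and 29.8 at 72 h, a difference that was not called (adjusted p from edgeR 0.44). A weak intronic site of RUNX1 (chr21:34863523-34863722) appeared at 6 h only, with 0.938 and 1.80 CPM against 0.0777 and 0 at 72 h.

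Erythroid genes had 16 of 279 sites higher and 98 lower with TMM, and 13 higher and 21 lower under all 5 scalings. Their median of −0.52 ran from −0.56 to 0.14 over the scalings, the last with shared sites, and lay below that of all sites under each. Of their 55 promoter sites 37 were lower, a share near that of all promoter sites. The fetal globin gene HBG1 fell from 22.1 and 21.1 CPM at 6 h to 10.0 and 10.5, and the transferrin receptor gene TFRC from 37.3 and 38 to 17.4 and 17.7. Sites over HBA1 and HBA2 had log2 fold changes of −2.02 and −2.06, but these alpha globin genes are near-identical copies and their split of reads is uncertain. GATA1, the erythroid master factor, had 2.81 and 3.61 CPM at its promoter at 6 h and 5.38 and 4.51 at 72 h, after 13.5 and 12.8 at 0 h, and its log2 fold change of 0.59 ± 0.24 was not called (adjusted p from edgeR 0.056). The site near an end of SLC4A1, the red cell anion exchanger, recovered from 1.71 and 3.26 to 4.12 and 6.16, well below its untreated 16 and 10.7.

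Adhesion and cytoskeleton genes had the largest late-opening share of the lists, 30 of 319 sites (9.40%, beside 6.35% of all), with 89 sites higher and 69 lower, and 68 and 8 under all 5 scalings. Inside ITGB8, an integrin subunit gene, a site at chr7:20345702-20346581 went from 0.341 and 0.506 CPM at 6 h to 9.97 and 11.7 at 72 h, after 0.195 and 0.717 at 0 h. The site at an end of ITGA3 (chr17:50055715-50057143) opened late from 6.22 and 6.68 to 13.6 and 14.3. PXN, which encodes the focal adhesion protein paxillin, had an internal start that rose from 4.26 and 5.09 to 10.1 and 8.47. ITGAV went the other way, with a fall-back site 624 bases from its start that held 13.6 and 15.2, 30.7 and 33.8, and 9.16 and 10.8 CPM.

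Cell division genes had 17 of 167 sites higher and 51 lower, and none of 36 promoter sites was higher while 32 were lower. Under all 5 scalings 10 sites were higher and 7 lower. The promoter of RRM2, a ribonucleotide reductase subunit, held 69.8 and 88.2 CPM at 0 h, 47.2 and 51.6 after 6 h and 15.6 and 17.4 after 72 h. CDK1, the mitotic kinase, closed late, from 58.1 and 63.3 to 21.7 and 25.9. Housekeeping genes had a lower median than this list, −0.89 (−0.92 to −0.22 over the scalings) against −0.42: 6 of 122 sites were higher and 72 lower, and 27 of 31 promoter sites were lower. Under all 5 scalings 3 were higher and 26 lower. ACTB fell from 83.0 and 80.0 CPM to 35.9 and 36.0, but its change was close to 0 with loess offsets, and GAPDH turned there from −0.71 to 0.28. The housekeeping fall-back share of 16.4% (20 sites) came largely from YWHAZ, which encodes a 14-3-3 protein and was the nearest gene of 11 fall-back sites. At an annotated end of YWHAZ (chr8:100916431-100917969), CPM was 5.26 and 4.26, then 18.9 and 20.8, then 3.26 and 3.4.

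Of the 22 promoter sites fixed by gene name, 21 were called with TMM, but the same call held under all 5 scalings at FOS, GATA2 and ITGA2B only. Of the other promoter sites described for these gene lists, those of MAFF, CDK1 and CD68 and both of CD9 lost their call under 1 of the 5.

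Markers of other cell types gave smaller sets. Monocyte and macrophage markers had 32 of 135 sites higher and 30 lower, shares close to those of all sites, with 11 fall-back (8.15%) and 10 late-opening sites (7.41%, beside 6.35% of all). Under all 5 scalings 23 were higher and 0 lower. The promoter of CSF1R, the receptor of macrophage colony-stimulating factor, continued to rise, from 7.25 and 11 CPM at 6 h to 14.4 and 16.6, while that of CD68 closed late. Lymphoid markers had 7 of 73 higher and 10 lower, and 6 and 3 under all 5 scalings. Epithelial and fibroblast markers had 15 of 84 higher and 19 lower (10 and 6 under all 5 scalings), with 12 fall-back sites (14.3%), among them the CLDN4 promoter (chr7:73830580-73831079) at 1.04 and 1.29, 4.43 and 6.08, and 1.81 and 1.70 CPM. Inside PDGFRA, a growth factor receptor gene, a site at chr4:54277005-54278162 opened late from 0.853 and 0.506 to 4.50 and 4.48 CPM.

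**Figure D5:**
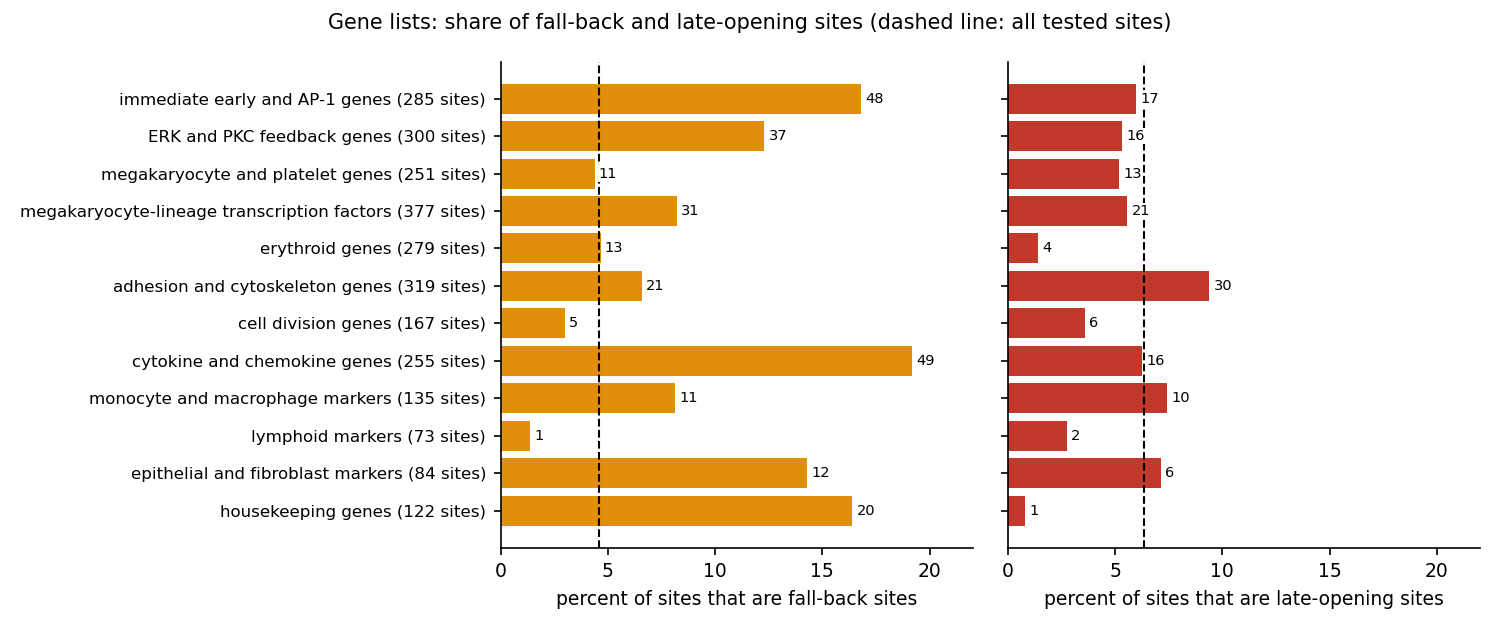
Percent of the tested sites of each gene list that fall back (left) or open late (right), with the number of such sites at each bar, the number of tested sites beside each name and a dashed line for all tested sites (4.61% and 6.35%). Cytokine and chemokine genes have the highest fall-back share (19.2%), and adhesion and cytoskeleton genes the highest late-opening share (9.40%).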

How the data were processed

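ATAC-seq reads of 6 K562 libraries were processed by the authors. The submitters' processing notes name Trim Galore 0.4.3, BWA 0.7.17, SAMtools 1.9, deepTools 3.0.1, MACS2, bedtools 2.26, DESeq and the build hg38, without roles or order. Whether read ends were shifted to the transposase cut, and how sites were listed, is not given in the sources used here. The deposited table holds raw counts per site and library, recognised as whole numbers with a different total in each. It also holds the authors' log2 fold changes and adjusted p-values per the file headers, which were not used for the tests. The deposited peak lists, one per library, follow the narrowPeak layout with a score, a fold enrichment and −log10 p- and q-values. Peaks were used only for overlap with sites.

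Counts were fitted in edgeR 4.0.16 (R 4.3.3) with TMM factors, the default filter (minimum count 10, 3376 sites removed) and a quasi-likelihood model of the 3 time points in all 6 libraries. The biological coefficient of variation was 0.166. The fit was also run on simulated counts, and the outcome of that run is not given here. CPM values are counts over the scaled library size, and intervals of ratios cover counting error only, as no molecular identifiers are stated. Coordinates are 1-based and in hg38. Gene starts came from RefSeq (GRCh38.p14), for 15843 genes from its promoter table, and 846 sites lay on scaffolds without genes. All 293 list genes were found.

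Members and lists were chosen with earlier results of these data known. Named sites follow fixed rules: per group the 5 sites with the largest change at 72 h against 6 h among those with mean CPM at or above the median, no overlap of libraries and the same call under each scaling; per group the 4 windows of a 100000-base grid with most members; per list the 2 highest and 2 lowest promoter sites and the 2 called distal sites with the largest change; and a set of promoters of immediate early, feedback, lineage and housekeeping genes. One recovering site chosen by these rules is not reported here. Nearest-gene counts and the printed promoter stretches were added after values were seen. Alternatives were other scalings, filters, thresholds, DESeq2 1.42.0, a replicate block and leaving out each library. Python 3.11.15 was used for the tables and figures.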

Additional observations from a re-analysis of the deposited data

How the results depend on the processing

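The direction of the contrast rests on how libraries are scaled. When TMM used only sites that carry a peak in every library, 77056 sites were higher and 9307 lower, and the groups held 20345 late-opening, 4390 late-closing, 2336 fall-back and 5503 recovering sites. With total counts, 20472 sites were lower and 4474 fell back. With loess offsets, 8452 sites closed late. DESeq2 gave 25030 higher sites and 7382 late-opening, 5316 fall-back and 2216 recovering ones. At the stricter limits (0.01 for the adjusted p, 1 for the size of the log2 fold change), 40148 sites differed, 24939 higher and 15209 lower, with 5589 late-closing, 3286 fall-back and 1949 recovering sites. A limit of 0.25 in place of 0.5 at 6 h against 0 h gave 6029 late-opening and 6753 late-closing sites. The cause of these shifts was not tested, except that stricter limits pass fewer sites by construction.

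Leaving out each library in turn gave 44528 to 82991 differing sites, 23725 to 45017 higher and 20803 to 40193 lower. The groups ranged from 7267 to 10528 (late-opening), 7014 to 14334 (late-closing), 3430 to 8614 (fall-back) and 1926 to 3440 (recovering). A lone library is assumed there to vary like the other time points.

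Libraries share only a replicate number, and the pairing was not established, as deviations of same-numbered libraries correlated at 0.082, 0.0533 and 0.0854. A replicate block gave 40364 higher and 39160 lower sites (79524 in all), and 11522 late-opening, 12239 late-closing, 8983 fall-back and 3733 recovering sites.

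Of 120 named sites, 9 refitted values reversed a called direction: with loess offsets FOSB 0.16, JUN 0.07, JUNB 0.48, EGR3 0.17, SPRY4 0.15, RUNX1 0.07 and GAPDH 0.28, and with shared sites JUNB 0.12 and ITGB3 0.01. Counted over every pair of a named site and a setting, another 93 values lost their call and 25 gained one. Of the 93, 16 came from the stricter limits, which are not a refit. Late-opening sites had few counts before 72 h, which limits their fold changes.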

Other observations

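The authors' deposited table carries a class name for each site that was not used above. In the authors' deposited table the class static separates exactly from the other 4 by an adjusted p under 0.05 and a larger absolute log2 fold change above 2, with 0 sites that differ and 37609 sites outside it. The 4 other names do not follow the deposited fold changes. In the authors' deposited table, 69.5% of downEarly (8943 sites), 71.9% of downLate (1992 sites), 69.3% of upEarly (5431 sites) and 71.1% of upLate sites (21243 sites) had a positive log2 fold change at 72 h. Its median at 6 h was 0.74, 0.87, 0.81 and 0.81 in the same order. Both columns of adjusted p-values in the authors' deposited table hold the same values at every site. Names for early and late changes were therefore rebuilt here from the counts.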
